A study of Mus musculus with 6 samples.

Results

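Nuclear genes for the mitochondrial respiratory chain were followed across 6 mouse liver tumours. The genes were found by symbol: array probes whose accession maps to names that start with Ndufa, Ndufb, Ndufc, Ndufs, Ndufv, Uqcr, Cox4i, Cox5, Cox6, Cox7, Cox8 or Atp5, and Sdha, Sdhb, Sdhc and Sdhd, without Cox6a2 and pseudogenes. That gave 91 genes of the 22911 symbols on the array, carried by 113 probes. The rule on symbols used no expression value, but the genes were chosen with earlier results of these data known. Of these, 89 passed the filter on dim probes, and the brightest probe stood for each gene. Cox8b and Cox8c, isoforms of a complex IV subunit found mainly in muscle and testis, did not pass: the Cox8b probe was well above background on 1 array and the Cox8c probe on 0. No probe was matched to Cox5b or to the genes of the mitochondrial DNA, which were not analysed here.

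The tumours were hepatocellular carcinomas (HCC) of C57BL/6 mice, 2 per group, each from 1 frozen sample on 1 single-colour Agilent array. The first group, "Epcam with CLC", and the second, "Epcam without CLC", came from Epcam-AID mice that were given tamoxifen and then a diet with 0.1% DDC for 8 months. They are described as derived from ductular progenitor cells. The third group, "Albumin", came from Alb-AID mice at 90 weeks of age, and its tumours, without CLC, are described as derived from albumin-expressing cells. The labels do not expand CLC or AID and give no age for the Epcam-AID mice. AID is in the name of both mouse lines, while the line, diet, tamoxifen and mouse age differ together, so that cell of origin cannot be told apart from them. In whole tumours, fewer cells of a type and less RNA per cell cannot be told apart.

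The respiratory chain sits in the inner mitochondrial membrane. Complex I takes electrons from NADH and complex II takes them from succinate, both pass them to coenzyme Q, complex III hands them to cytochrome c, and complex IV delivers them to oxygen. Complexes I, III and IV pump protons, and complex V, the ATP synthase, uses the returning protons to make ATP. Hepatocytes are rich in mitochondria. All subunits of complex II and most of the others are encoded in the nucleus, as are all the genes described here.

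Values are log2 signals relative to the array's own 75th percentile. This percentile lay between 285 and 315 intensity units on slide 1, which held Epcam with CLC replicate 1 and both Albumin tumours. It lay between 424 and 488 on slide 2, which held Epcam with CLC replicate 2 and both Epcam tumours without CLC. The share of probes well above background was 52.0 to 56.5% on slide 1 and 63.1 to 64.6% on slide 2. No spot was saturated, and 88 of the 89 genes were well above background on all 6 arrays. Hepatocyte markers were strong in all tumours: the mean over 7 of them was 7.90 and 7.54 in Epcam tumours with CLC, 7.82 and 7.68 in Epcam tumours without CLC, and 8.67 and 8.37 in Albumin tumours.

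No respiratory chain gene passed limma's test at an adjusted p of 0.05 in any of the 3 comparisons between groups. The genes did differ between tumours, and they differed together. Set against each gene's own mean over the 6 arrays, the median of the 89 genes was 0.15 and -0.28 in Epcam tumours with CLC, -0.35 and 0.12 in Epcam tumours without CLC, and 0.29 and 0.06 in Albumin tumours. Epcam without CLC replicate 1 held the lowest value of 45 genes and Epcam with CLC replicate 2 that of 28. Albumin replicate 1 held the highest value of 45 genes and Epcam without CLC replicate 2 that of 21. Each Epcam group thus paired a tumour with high values and a tumour with low values. The Epcam tumours with CLC were on different slides, so their difference cannot be told apart from one between slides. The tumours of each other group shared a slide.

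**Figure D1:**
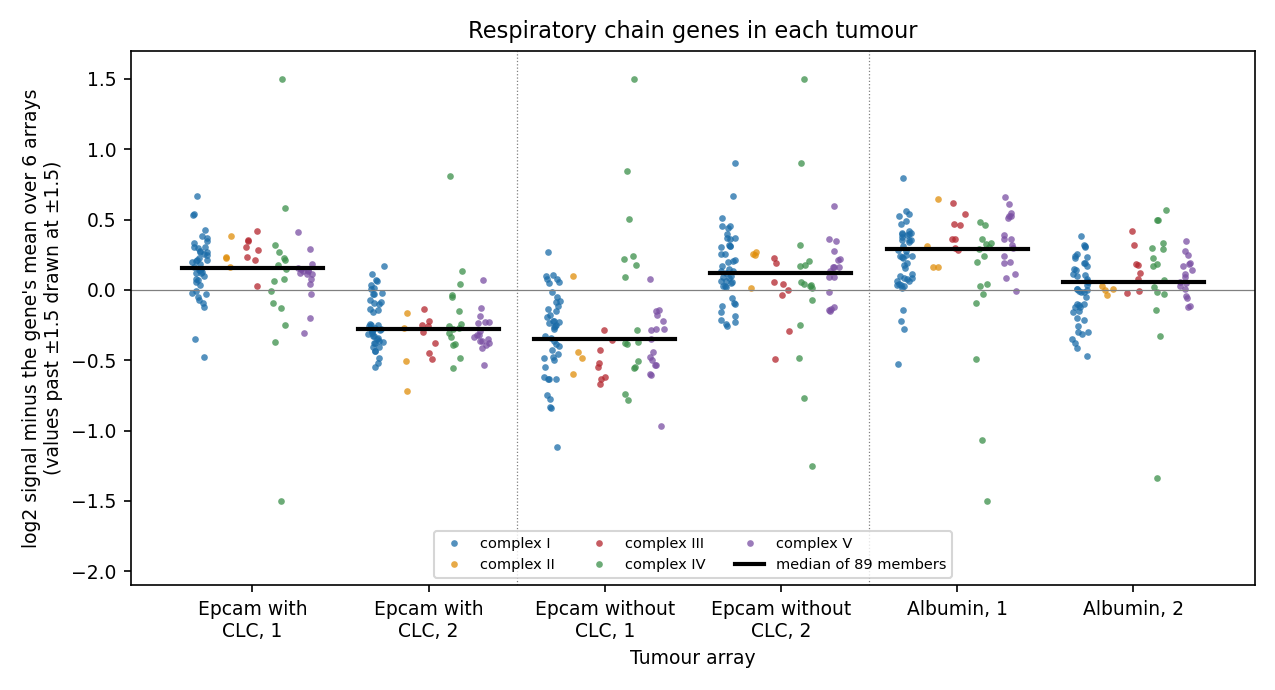
Each point is 1 of 89 respiratory chain genes in 1 of 6 tumour arrays, as its log2 signal minus the gene's mean over the arrays, coloured by complex, with values past ±1.5 drawn at that limit; black bars are medians over all 89 genes. The bars of Epcam with CLC replicate 2 (-0.28) and Epcam without CLC replicate 1 (-0.35) lie below 0 and the other 4 above it, and the median of each complex is below 0 in those 2 tumours.

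Between the Epcam tumours with CLC, which were on different slides, 78 of the 89 genes were lower in replicate 2. The median gap was -0.45, while 48.3% of all 27414 features were lower there. Between the Epcam tumours without CLC, 74 of the 89 genes were higher in replicate 2, with a median gap of 0.42, against 48% of all features. Between the Albumin tumours, 77 of the 89 genes were lower in replicate 2, with a smaller median gap of -0.20, against 50.4% of all features. All 3 signs held together for 59 of the 89 genes (66.3%) and for 12.4% of all features; the signs were read from these same genes, so the count is a description. The gaps kept their sign under each of 5 scalings, from -0.45 to -0.36 in Epcam tumours with CLC, from 0.41 to 0.57 in Epcam tumours without CLC and from -0.40 to -0.18 in Albumin tumours.

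Examples from complexes I, II and V show how large these gaps could be. Ndufa12, an accessory subunit of complex I, read 5.09 and 4.69 in Epcam tumours with CLC, 3.88 and 5.23 in Epcam tumours without CLC, and 4.76 and 4.67 in Albumin tumours. Sdhb, the iron-sulfur subunit of complex II, read 6.09 and 5.13, then 5.41 and 6.12, and 6.50 and 5.85 in the same order of groups. Atp5d, the delta subunit of the ATP synthase head, read 5.03 and 4.21 in Epcam tumours with CLC, 3.65 and 4.71 in Epcam tumours without CLC, and 5.14 and 4.97 in Albumin tumours. In each of these genes the values of Epcam without CLC replicate 2 lay near those of Epcam with CLC replicate 1, and the lowest value came from one of the remaining Epcam tumours. These genes are not typical. Between the Epcam tumours without CLC, Ndufa12 and Atp5d had the widest gaps of their complexes, at 1.35 and 1.06, against medians of 0.37 and 0.41. Sdhb had the widest gap of complex II between the Epcam tumours with CLC, at -0.95 against a median of -0.64.

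All 5 complexes took part. In the Epcam tumours with CLC, replicate 2 was lower for 39 of 44 complex I genes, 4 of 4 complex II genes, 8 of 8 complex III genes and 16 of 17 complex V genes. In the Epcam tumours without CLC, replicate 2 was higher for 39 of 44 complex I genes, 3 of 4 complex II genes, 7 of 8 complex III genes and 16 of 17 complex V genes. For complex IV without its alternative isoforms, 9 of 11 genes were lower in replicate 2 of the first pair, and 8 of 11 were higher in replicate 2 of the second. The exceptions included Cox7a2l, a factor that joins complexes into supercomplexes, at 5.50 and 5.61 in Epcam tumours with CLC, 6.11 and 5.79 in Epcam tumours without CLC, and 5.84 and 6.36 in Albumin tumours. They also included Ndufa7, an accessory subunit of complex I, with 6.01 and 5.55 in Epcam tumours without CLC.

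Several lists of other mitochondrial genes, chosen with earlier results known, had gaps of the same signs. Genes of the tricarboxylic acid cycle and pyruvate dehydrogenase, which supply NADH and succinate, were lower in replicate 2 for 16 of 16 in Epcam tumours with CLC. They were higher in replicate 2 for 16 of 16 in Epcam tumours without CLC and lower for 15 of 16 in Albumin tumours. Coenzyme Q synthesis genes followed for 9, 10 and 8 of 10 genes in these 3 pairs, and mitochondrial ribosome genes for 61, 70 and 55 of 78. Other lists did not follow throughout. The 14 biogenesis regulators split into 7 higher and 7 lower in both Epcam pairs. Of the 5 complex III assembly factors, 3 were higher in replicate 2 of the Epcam tumours with CLC (median gap 0.10), and of the 7 inner membrane carriers, 4 were higher in replicate 2 of the Albumin tumours. Genes of the cytosolic ribosome also differed from the chain: 37 of 77 were lower in replicate 2 of the Epcam tumours with CLC, 21 of 77 were higher in replicate 2 of the Epcam tumours without CLC, and 2 of 77 were lower in replicate 2 of the Albumin tumours.

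Markers of other cell types and states also differed inside the pairs. The mean over 4 erythroid markers was -0.06 and -2.22 in Epcam tumours with CLC, 0.37 and -2.44 in Epcam tumours without CLC, and -1.57 and -2.08 in Albumin tumours. The mean over 4 cell cycle markers was -1.5 and 0.03, -2.43 and -0.25, and -0.37 and -1.46 in the same order. Replicate 2 was thus the lower one for erythroid markers in each of the 3 pairs, and the higher one for cell cycle markers in both Epcam pairs. Of the 7 hepatocyte markers, 6, 5 and 6 were lower in replicate 2 of the 3 pairs, with median gaps of -0.43, -0.21 and -0.28, so they did not share the sign of the respiratory chain genes in the Epcam tumours without CLC. Of 5 macrophage markers, 3 were lower in replicate 2 of the Epcam tumours with CLC, 4 were higher in replicate 2 of the Epcam tumours without CLC, and 3 were higher in replicate 2 of the Albumin tumours, with median gaps of -0.30, 0.62 and 0.21. The 6 stellate and matrix markers had gaps of -0.01, -0.90 and 0.51 in these pairs, the last 2 opposite in sign to the chain, with 5 of 6 genes lower and 5 of 6 higher. The 6 biliary markers had gaps of 0.03, 0.16 and 1.37, and all 6 were higher in replicate 2 of the Albumin tumours. Median gaps were 0.44, -0.60 and 0.06 for T and NK cell markers, 0.71, 0.49 and -1.69 for B cell markers, -0.63, -0.62 and 0.02 for neutrophil markers, and -0.06, -0.03 and -0.95 for endothelial markers. The part of other cells in the gaps of the chain was not tested.

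Promoter sequence gives 1 feature that the choice of genes did not use. Nuclear respiratory factor 1 (NRF1) and GA-binding protein (GABP) are transcription factors known for binding near the starts of many respiratory chain genes. RefSeq windows of 250 bases before to 50 bases after a start (GRCm38.p6) were at hand for 75 of the 91 genes. The NRF1 letters, GCGCA then any base then GCGC, searched on both strands as were all motifs and with overlaps between motifs allowed, were present in 19 of the 75 (25.3%) against 5.19% of all 27025 genes with a window. The GABP letters CCGGAAG were also in 19 (25.3%) against 9.93%, and 34 genes (45.3%) held either motif against 14% of all. The YY1 letters AAGATGG were in 16% against 7.28%, and the letters AAGGTCA, read by estrogen-related receptors, in 10.7% against 5.38%. These are matches of letters in a window and not binding sites.

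The stretches below lie before the start of a gene of each complex. It is the gene with the largest difference between Epcam tumours without CLC and Albumin tumours among those with the NRF1 letters there. Genes with the GABP letters alone were considered only where no gene of the complex had the NRF1 letters there. The stretches are given 5′ to 3′ on the gene's strand, which is the minus strand for all 5. They follow RefSeq's GRCm38.p6, with the motif in capitals. The motif is that of NRF1 in Ndufb4 (chr16:37654495-37654614), Sdhd (chr9:50603864-50603983), Cox6a1 (chr5:115349056-115349175) and Atp5k (chr5:108434400-108434504). No complex III gene had the NRF1 letters in the bases before its start, and the GABP letters are marked for Uqcrh (chr4:116075071-116075135).
Ndufb4: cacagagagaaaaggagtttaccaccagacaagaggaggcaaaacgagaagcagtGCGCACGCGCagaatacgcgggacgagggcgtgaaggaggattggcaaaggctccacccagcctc
Sdhd: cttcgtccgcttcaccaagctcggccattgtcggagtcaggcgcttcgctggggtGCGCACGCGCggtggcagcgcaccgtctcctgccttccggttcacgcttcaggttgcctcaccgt
Uqcrh: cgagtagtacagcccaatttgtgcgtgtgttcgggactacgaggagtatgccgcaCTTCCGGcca
Cox6a1: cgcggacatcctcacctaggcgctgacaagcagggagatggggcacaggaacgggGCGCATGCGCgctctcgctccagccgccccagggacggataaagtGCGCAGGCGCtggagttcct
Atp5k: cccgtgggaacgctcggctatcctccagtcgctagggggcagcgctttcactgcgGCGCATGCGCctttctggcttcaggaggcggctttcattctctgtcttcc
Both capital runs of Cox6a1 are NRF1 matches. Ndufb4, an accessory subunit of complex I, read 5.67 and 5.35 in Epcam tumours with CLC, 5.48 and 5.82 in Epcam tumours without CLC, and 6.17 and 6.07 in Albumin tumours. Sdhd, a membrane anchor of complex II, read 5.0 and 4.56, 4.35 and 5.09, and 5.14 and 4.86 in the same order. All 4 Epcam values of Ndufb4 lay below both Albumin values, while the groups of Sdhd overlapped.

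Epcam tumours without CLC were next compared with Albumin tumours. These groups differ in described origin, mouse line, diet, tamoxifen, mouse age and slide together. With the 75th percentile as scaling, 68 of the 89 genes had a fitted difference below 0, against 46.5% of all features, with a median of -0.31 (0.805-fold), against 0.06 over all features. Under quantile normalization the median was 0.05 with 38 genes below 0, against 0.07 over all features, so the lean did not hold there. In the authors' table it was 0.00051 with 44 genes below 0, but the median over all features was 0.37, so that relative to all features the genes lay at -0.37, as in the main scaling. The 75th percentile, the array median and the authors' table each apply 1 factor per array, so between them all genes shift alike. Normexp background correction moved the median of all features to -0.16, and relative to it the genes lay at -0.09. limma called 0 of the 89 genes at an adjusted p of 0.05 and 0.244% of all features, and the smallest adjusted p among the genes was 0.248. At an unadjusted p of 0.05 it called 1 gene, which was lower, against 20% of all features in either direction and 8.28% lower. Both Epcam arrays lay below both Albumin arrays for 33 genes (37.1%, against 24.8% of all features) and above both for 8 (8.99%, against 30.4%).

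No cell type marker passed the test in this comparison, but their differences leaned as well. All 7 hepatocyte markers had a difference below 0, against 46.5% of all features. The largest were Fgb at -1.61 ± 0.40 (limma adjusted p = 0.135) and Ttr at -1.32 ± 0.34 (adjusted p = 0.145). The smallest was Hnf4a at -0.10 ± 0.29. All 5 macrophage markers had a difference above 0, the largest being Adgre1 at 1.35 ± 0.30 (adjusted p = 0.115). Cd68 at 0.04 ± 0.75 and Marco at 0.02 ± 0.82 were close to 0, and Clec4f was at 1.18 ± 1.30. The mean over the macrophage markers was 2.86 and 2.61 in Epcam tumours with CLC, 1.51 and 2.20 in Epcam tumours without CLC, and 1.27 and 1.02 in Albumin tumours. Their part in the lean of the chain was not tested.

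Slide and group coincide in this comparison, since both Epcam tumours without CLC were on slide 2 and both Albumin tumours on slide 1. The slides are linked only by the Epcam tumours with CLC, and with slide as a block through them the median was 0.17, with 31 of 89 genes below 0. Without Epcam without CLC replicate 1 the median was -0.07, with 48 of 89 genes below 0, and without replicate 2 of that group it was -0.54, with 73 below 0.

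**Figure D2:**
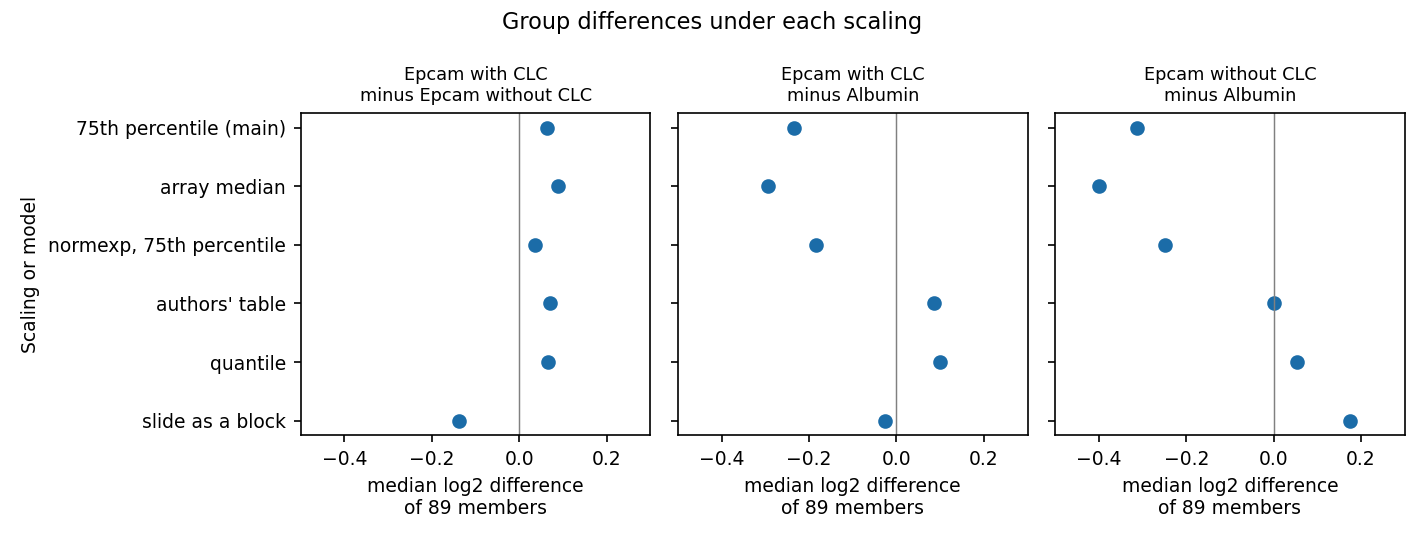
Points give the median log2 difference over the 89 respiratory chain genes in each comparison (panels), under 5 scalings and with slide as a block (rows). The points of the 2 comparisons with Albumin tumours lie on both sides of 0, from -0.40 to 0.17 for Epcam tumours without CLC and from -0.30 to 0.10 for Epcam tumours with CLC.

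Complex III was the complex whose genes lay on 1 side of 0 under all 5 scalings. All 8 of its measured subunits had a difference below 0 in each, with a median between -0.68 and -0.18, and -0.59 in the main scaling. Uqcrh, the hinge protein that helps cytochrome c dock, read 6.19 and 5.99 in Epcam tumours without CLC, against 7.02 and 6.66 in Albumin tumours, a difference of -0.75 ± 0.33 (SE, n = 2 tumours each, limma adjusted p = 0.277). Uqcrq, a small subunit next to cytochrome b, read 7.50 and 7.56 in Epcam tumours without CLC, against 8.22 and 8.27 in Albumin tumours, a difference of -0.71 ± 0.33 (adjusted p = 0.293). Both Epcam arrays lay below both Albumin arrays for these 2 genes and for Uqcrb, Uqcr10 and Uqcr11. That is 5 of 8 genes (62.5%), against 24.8% of all features. Complex III was picked out by these same values, so the count is a description.

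The other 3 complex III genes had overlapping groups. Uqcrfs1, the Rieske iron-sulfur protein, read 4.0 and 4.81 in Epcam tumours without CLC, against 4.98 and 4.79 in Albumin tumours. The core proteins Uqcrc1, at 4.02 and 4.91 in Epcam tumours without CLC against 4.97 and 4.68 in Albumin tumours, and Uqcrc2, at 4.57 and 5.06 against 5.29 and 4.97 in the same order, overlapped too. In all 3 the high Epcam tumour, replicate 2, read above the lower Albumin tumour, and replicate 1 read below both. Complex III as a whole had 7 of 8 genes below 0 without replicate 1 of the Epcam tumours without CLC, with a median of -0.32, and 4 of 8 with slide as a block, with a median of -0.03.

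**Figure D3:**
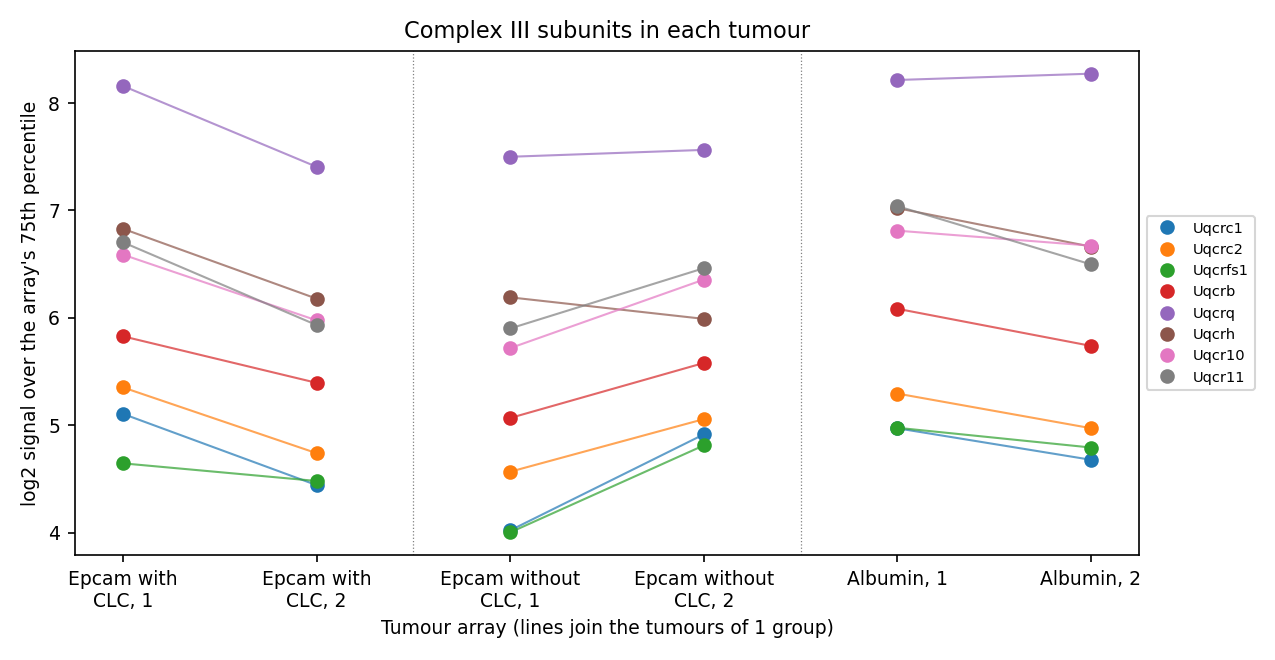
Points give the log2 signal of the 8 complex III subunits over the array's 75th percentile in each of the 6 tumours, and lines join the 2 tumours of a group; heights are compared within a gene only. All 8 are lower in replicate 2 of the Epcam tumours with CLC, and 7 of 8 are higher in replicate 2 of the Epcam tumours without CLC.

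Complex I is described by role. Its 7 core subunits, which carry the electron path, had a median difference of 0.03 with 3 of 7 below 0, while its 29 accessory subunits had a median of -0.29 with 24 of 29 below 0. The core's median lay 0.34 above that of all 89 genes, a gap that scalings with 1 factor per array cannot change. It was 0.14 under quantile normalization and 0.35 with normexp. The same gap was -0.15 for Epcam tumours with against without CLC. For Epcam tumours with CLC against Albumin tumours it was 0.16, and -0.03 under quantile normalization. The accessory median turned to 0.14 under quantile normalization. With slide as a block both medians were above 0, at 0.52 for the core with 1 of 7 below 0 and 0.21 for the accessory subunits with 6 of 29 below 0. The difference between the roles was not tested. Ndufv2, a core subunit of the NADH-oxidising tip, read 4.47 and 4.69 in Epcam tumours without CLC, against 4.16 and 4.01 in Albumin tumours, a difference of 0.49 ± 0.25 (adjusted p = 0.33). Ndufs8, a core subunit with iron-sulfur clusters, read 4.47 and 4.46 in Epcam tumours without CLC, against 5.14 and 4.83 in Albumin tumours. Groups did not overlap for either gene, and they lay in opposite directions.

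Values of 4 more core subunits of complex I overlapped between these groups. Ndufs1, the largest of them, read 4.20 and 4.17 in Epcam tumours without CLC, against 4.42 and 3.88 in Albumin tumours. Ndufs3 read 5.18 and 5.51 against 5.98 and 5.42 in the same order. Ndufs7 read 4.37 and 5.32 against 5.14 and 5.37, and Ndufv1, which binds NADH, read 5.11 and 5.54 against 5.36 and 5.17. A second Ndufv1 probe gave a difference of -0.06, where the brightest gave 0.06.

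Among accessory subunits and assembly factors, the largest differences went both ways. Ndufab1, the acyl carrier protein that complex I shares with fatty acid synthesis in the mitochondrion, read -0.78 and 0.22 in Epcam tumours without CLC, against 1.14 and 0.37 in Albumin tumours. Its difference was -1.03 ± 0.53 (adjusted p = 0.331). Ndufaf8, an assembly factor, read 0.03 and 0.83 in Epcam tumours without CLC, against -0.60 and -0.17 in Albumin tumours, with a difference of 0.82 ± 0.40 (adjusted p = 0.317). Groups did not overlap for either gene. The 8 assembly factors had a median of 0.02, with 4 of 8 below 0.

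In complex II all 4 subunits had a difference below 0 in the main scaling, from -0.41 to -0.03, but only 2 of 4 under quantile normalization and 0 of 4 with slide as a block. Sdha, the flavoprotein that oxidises succinate, read 3.54 and 4.39 in Epcam tumours without CLC, against 4.31 and 4.11 in Albumin tumours. Sdhc, a membrane anchor, read 3.71 and 3.62 against 3.77 and 3.61 in the same order. Groups overlapped for all 4 subunits. A second Sdha probe gave a difference of 0.0061, where the brightest gave -0.24.

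In complex IV the regular subunits had a median difference of -0.40 with 9 of 10 below 0, but 5 of 10 under quantile normalization, and 3 of 10 with slide as a block, with a median of 0.16. Among the alternative isoforms, Cox7b2 passed the filter only through the Epcam tumours without CLC, where it was high, so that its direction was set by the filter. The other 4 isoforms that passed had differences of 0.03 to 0.78 in the main scaling. With slide as a block the median of the isoforms was -0.0025. No test of isoforms against regular subunits was run. Cox4i1, the general form of subunit 4, read 6.13 and 6.01 in Epcam tumours without CLC, against 6.96 and 6.79 in Albumin tumours, a difference of -0.80 ± 0.40 (adjusted p = 0.323). Cox5a read 5.77 and 6.65 against 6.52 and 6.30, with overlapping groups.

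Cox7c, a small subunit of complex IV, was the gene with an unadjusted p under 0.05. It read 4.0 and 4.79 in Epcam tumours without CLC, against 5.26 and 5.28 in Albumin tumours, a difference of -0.88 ± 0.35 (adjusted p = 0.248). Its second probe, also well above background on all 6 arrays, gave a difference of 0.44, a gap of 1.31 between probes and the widest among the 19 genes with several detected probes. Of those 19 genes, 14 had probes of 1 sign in this comparison and 5 had probes of opposite sign: Cox7c, Ndufa10, Ndufaf5, Ndufv1 and Sdha.

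Complex V had 15 of 17 genes below 0 in the main scaling, with a median of -0.33, but 5 of 17 under quantile normalization, with a median of 0.11. In its catalytic head, Atp5a1, the alpha subunit, read 6.84 and 7.15 in Epcam tumours without CLC, against 7.18 and 6.87 in Albumin tumours. Atp5b, the beta subunit, read 6.48 and 7.44 against 7.44 and 7.20 in the same order. Both overlapped between groups. The largest differences were those of Atp5d, at -0.87 ± 0.47 (adjusted p = 0.352), and Atp5j, coupling factor 6 of the stalk, at -0.79 ± 0.33 (adjusted p = 0.263). Atp5j read 5.0 and 5.39 in Epcam tumours without CLC, against 6.20 and 5.79 in Albumin tumours, with no overlap.

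**Figure D4:**
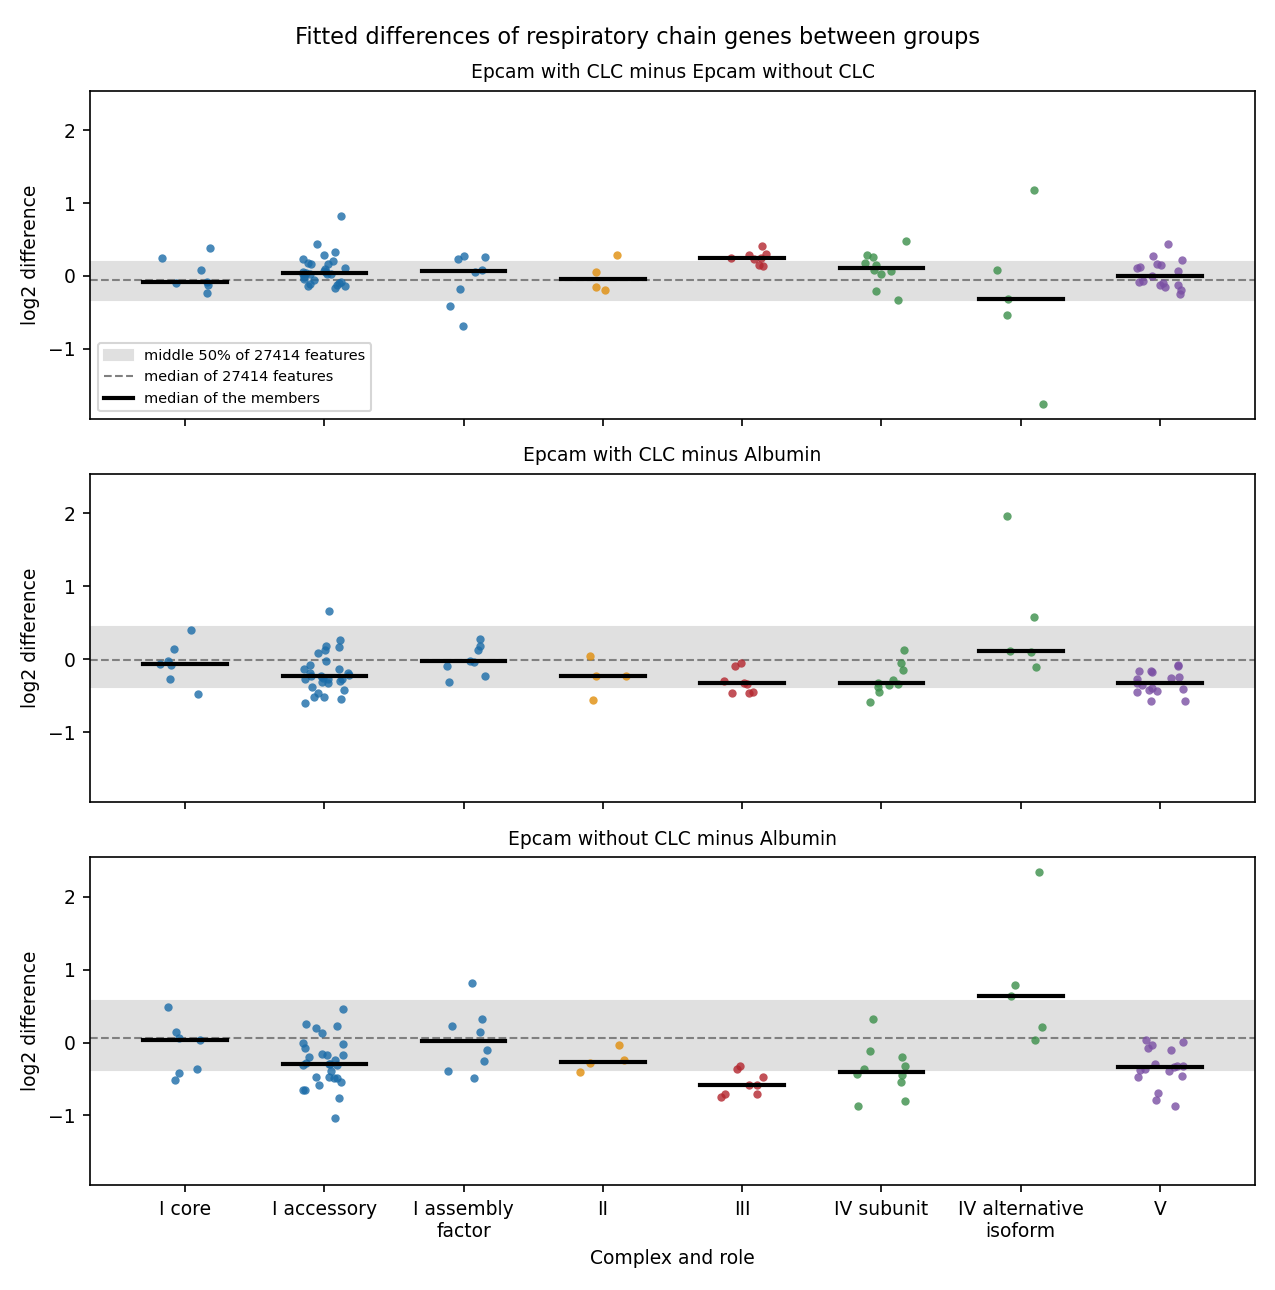
Points are fitted log2 differences of the 89 genes by complex and role in the 3 comparisons, black bars are medians, and the grey band holds the middle 50% of all 27414 features. In the bottom panel complex III lies lowest, with a median of -0.59, while the complex I core lies at 0.03; the highest point among the alternative isoforms is Cox7b2, which passed the filter only through the Epcam tumours without CLC.

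The comparison of Epcam tumours with CLC and Epcam tumours without CLC, which share mouse line and diet, had a median difference nearer to 0. The median over the 89 genes was 0.06, against -0.06 over all features, with 33 genes below 0 (37.1%) against 56.9% of all features. limma called 0 genes at an adjusted p of 0.05, and 0% of all features. At an unadjusted p of 0.05 it called 0 of the 89 genes, against 3.48% of all features in either direction and 2.17% lower. Both arrays with CLC lay below both without CLC for 5 genes (5.62%, against 19.8% of all features) and above both for 1 (1.12%, against 10.3%). The sign of the median was kept under the 5 scalings, from 0.04 to 0.09, but it was -0.14 within slide 2, where Epcam with CLC replicate 2 meets both tumours without CLC, and -0.16 without Epcam without CLC replicate 1.

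Krt19 had the largest difference of the 6 biliary markers here, at 2.56 ± 0.50 (limma adjusted p = 0.999). Krt7 (1.63), Epcam (1.62) and Spp1 (1.19) also lay above 0, while Sox9 (-0.54) and Cldn7 (-0.29) lay below. The mean over the 6 biliary markers was -0.70 and -0.56 in Epcam tumours with CLC, against -1.49 and -1.82 in Epcam tumours without CLC. It includes dim probes, since Krt19 was well above background on 5 arrays and Krt7 and Epcam on 4 each.

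Complex III again lay on 1 side, with 8 of 8 genes above 0 under all 5 scalings and a median of 0.25, against 5 of 8 below 0 within slide 2, which leaves out replicate 1 of the tumours with CLC. Uqcrh read 6.83 and 6.18 in Epcam tumours with CLC, against 6.19 and 5.99 in Epcam tumours without CLC, a difference of 0.41 ± 0.33 (limma adjusted p = 0.999). Uqcrc1 read 5.11 and 4.44 against 4.02 and 4.91 in the same order, a difference of 0.31 ± 0.42. Groups overlapped for all 8 genes. Ndufab1 differed by 0.82 ± 0.53, with 1.01 and 0.07 in Epcam tumours with CLC, against -0.78 and 0.22 in Epcam tumours without CLC.

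The 6 genes without overlap were Atp5g2, Cox4i2, Cox6c, Cox7a2l and Cox7b2, lower in the tumours with CLC, and the assembly factor Ndufaf5, higher there; they were chosen after their values were seen. Cox6c, a complex IV subunit, read 6.10 and 5.83 in Epcam tumours with CLC, against 6.32 and 6.28 in Epcam tumours without CLC. Atp5g2, which encodes the c subunit of the rotor, read 5.97 and 5.83 against 6.25 and 6.05 in the same order. Ndufaf5 read -0.84 and -0.72 against -1.14 and -0.95. Of the 2 largest differences in each other complex, all with overlap apart from that of Cox7b2, those of Atp5d at 0.44 ± 0.47, Atp5e at 0.27 ± 0.31, Sdha at 0.28 ± 0.39 and Cox7a1 at 1.17 ± 0.83 lay above 0, and those of Sdhc at -0.20 ± 0.33 and Ndufaf8 at -0.68 ± 0.40 below.

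Between Epcam tumours with CLC and Albumin tumours, 72 of the 89 genes had a difference below 0 in the main scaling, against 50.7% of all features, with a median of -0.23 against -0.01. This lean turned under quantile normalization, with 31 genes below 0 and a median of 0.10, against 0.01 over all features. In the authors' table the median was 0.09, but the median over all features was 0.31 there, so that the genes lay below it as in the main scaling. limma called 0 genes at an adjusted p of 0.05 and 0.062% of all features, and the smallest adjusted p among the genes was 0.331. At an unadjusted p of 0.05 it called 0 of the 89 genes, against 16% of all features in either direction and 8.06% lower. Both arrays with CLC lay below both Albumin arrays for 25 genes (28.1%, against 27% of all features) and above both for 4 (4.49%, against 23.8%). Of the cell type markers, 7 of 7 for hepatocytes had a difference below 0 and 4 of 5 for macrophages one above 0, with Adgre1 at 1.69 ± 0.30 (adjusted p = 0.113). Within slide 1, where Epcam with CLC replicate 1 meets both Albumin tumours, the median was -0.03 with 49 of 89 genes below 0.

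Complex V had 17 of 17 genes below 0 in the main scaling, with a median of -0.33, and 4 of 17 under quantile normalization. Atp5j read 5.69 and 5.15 in Epcam tumours with CLC, against 6.20 and 5.79 in Albumin tumours, a difference of -0.58 ± 0.33 (limma adjusted p = 0.458). Atp5g2 read 5.97 and 5.83 against 6.49 and 6.45 in the same order, a difference of -0.57 ± 0.25 (adjusted p = 0.338). Groups did not overlap for either gene, and both kept a difference below 0 under all 5 scalings. In complex I, Ndufb4 differed by -0.61 ± 0.27 (adjusted p = 0.357), and in complex IV, Cox7c by -0.59 ± 0.35 (adjusted p = 0.47).

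In complex III all 8 genes had a difference below 0 in the main scaling, with a median of -0.33, but 2 of 8 under quantile normalization. Uqcrq read 8.16 and 7.41 in Epcam tumours with CLC, against 8.22 and 8.27 in Albumin tumours, a difference of -0.46 ± 0.33 (adjusted p = 0.542). Uqcr10, a small subunit, read 6.59 and 5.98 against 6.81 and 6.67 in the same order, a difference of -0.46 ± 0.36 (adjusted p = 0.576). Both lay below without overlap, with the value of Epcam with CLC replicate 1 close to those of the Albumin tumours. In complex II, Sdhb differed by -0.57 ± 0.47 and Sdhc by -0.22 ± 0.33, with overlap.

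Ndufa11, an accessory subunit of the complex I membrane arm, went the other way. It read 2.78 and 2.28 in Epcam tumours with CLC, 2.16 and 2.50 in Epcam tumours without CLC, and 1.97 and 1.77 in Albumin tumours. All 4 Epcam values lay above both Albumin values, and the difference of Epcam tumours with CLC from Albumin tumours was 0.66 ± 0.30 (adjusted p = 0.361). The difference was above 0 under each alternative tried, from 0.41 to 0.98.

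Subunits with alternative isoforms allow the forms to be set side by side, gene by gene. Cox7a1, the form typical of heart, muscle and brown fat, read 2.09 and -0.09 in Epcam tumours with CLC, 0.46 and -0.81 in Epcam tumours without CLC, and -0.54 and -1.38 in Albumin tumours. Both tumours with CLC lay above both Albumin tumours, by 1.96 ± 0.83 (limma adjusted p = 0.331), and the value of Epcam with CLC replicate 1 stood apart. Leaving out 1 array moved this difference between 0.86 and 3.05, and that of Epcam tumours with from those without CLC, 1.17, between 0.08 and 2.27, with the low ends without Epcam with CLC replicate 1 and the high ends without replicate 2 of that group. Cox7a2, the liver form, read 6.22 and 5.75, 5.25 and 6.20, and 6.32 and 6.22 in the same order, and did not share that pattern. Of 3 genes listed as muscle markers, Acta1 was well above background on all 6 arrays, Ckm on 1 and Myh4 on 0, and Acta1 read -3.59 and -2.20 in Epcam tumours with CLC, -3.44 and -2.87 in Epcam tumours without CLC, and -3.31 and -3.91 in Albumin tumours.

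Ndufa4l2, a relative of the complex IV subunit Ndufa4 that is known to be induced by low oxygen, had the widest gap inside a group. It read 0.58 and -0.25 in Epcam tumours with CLC, 2.35 and -0.95 in Epcam tumours without CLC, and -0.76 and 0.87 in Albumin tumours. Ndufa4 itself read 5.23 and 5.37, 4.78 and 6.23, and 5.36 and 5.0 in the same order. In each group the tumour with more Ndufa4l2 had less Ndufa4 than its partner, although the Ndufa4 values of the Epcam tumours with CLC lay close together.

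The remaining isoforms varied less or were dim. Cox4i2, the form found in lung and linked to low oxygen, read -0.75 and -0.54 in Epcam tumours with CLC, -0.33 and -0.33 in Epcam tumours without CLC, and -0.60 and -0.48 in Albumin tumours. Cox6b2, the testis form, lay between -2.19 and -1.72 on all arrays, and Cox6b1, the general form, between 2.62 and 3.46. Cox7b2, a testis form, was not well above background in Epcam with CLC replicate 1 (-6.10) or Albumin replicate 1 (-6.79). It read -3.70 in the other tumour with CLC, -3.67 and -2.63 in Epcam tumours without CLC and -4.18 in the other Albumin tumour, so that its differences of 2.34 ± 1.13 between Epcam tumours without CLC and Albumin tumours and -1.75 ± 1.13 between Epcam tumours with and without CLC rest on such arrays. Cox8a, the general form of subunit 8, lay between 6.96 and 7.63 on all arrays.

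**Figure D5:**
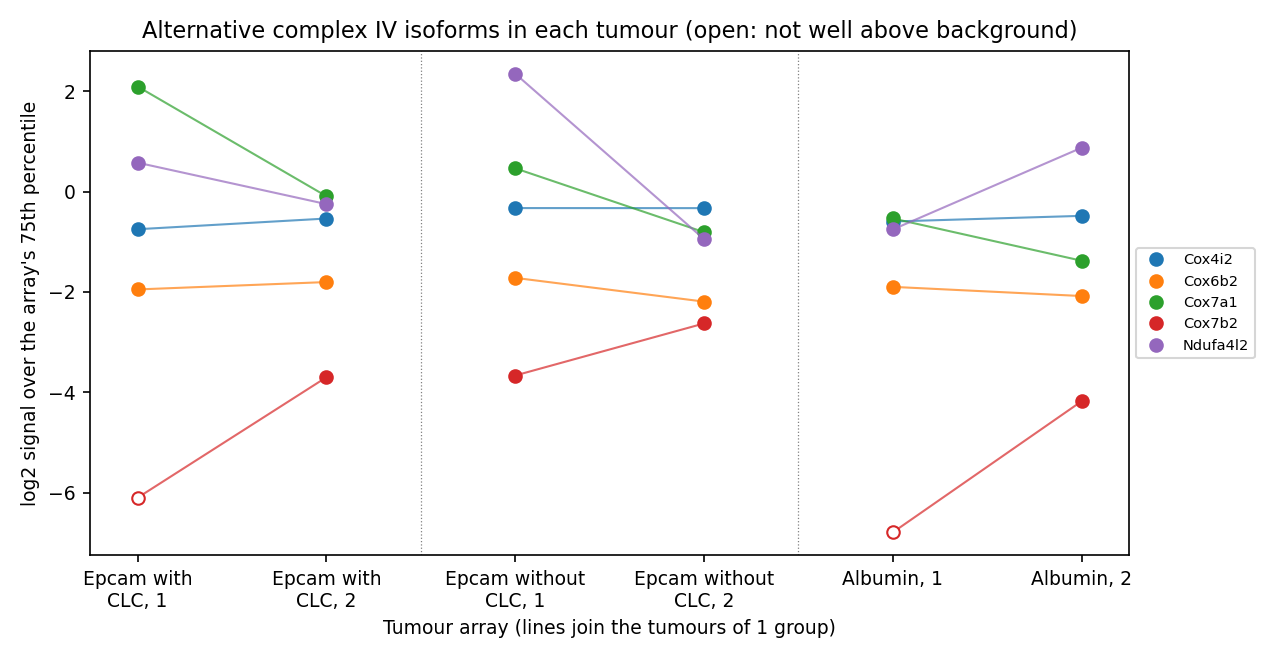
Points give the log2 signal of 5 alternative complex IV isoforms over the array's 75th percentile in each of the 6 tumours, with open points where the probe was not well above background; lines join the tumours of a group and heights are compared within a gene only. Ndufa4l2 is highest in Epcam without CLC replicate 1 (2.35) and Cox7a1 in Epcam with CLC replicate 1 (2.09).

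The 3 genes for the c subunit of the ATP synthase rotor encode the same mature protein behind different import signals. Atp5g1 read 6.65 and 6.10 in Epcam tumours with CLC, 6.32 and 6.63 in Epcam tumours without CLC, and 6.58 and 6.52 in Albumin tumours. Atp5g3 read 7.02 and 6.73, 6.76 and 7.21, and 7.58 and 6.99. The groups of Atp5g1 overlapped in all 3 comparisons, whereas Atp5g2 was lowest in both tumours with CLC and highest in both Albumin tumours.

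Genes that build or feed the chain were read from the lists of pathway genes, and limma called none of them at an adjusted p of 0.05 in any comparison. Cytochrome c (Cycs) read 5.37 and 4.80 in Epcam tumours with CLC, 4.05 and 5.02 in Epcam tumours without CLC, and 5.24 and 4.57 in Albumin tumours. Cytochrome c1 of complex III (Cyc1) read 5.13 and 4.39, 4.4 and 4.80, and 5.28 and 4.84. Both genes thus had the gaps between replicates seen in the chain's subunits. For Cyc1 both Epcam tumours without CLC lay below both Albumin tumours, with a difference of -0.46 ± 0.37 (adjusted p = 0.513).

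Several assembly factors had larger fitted differences than the regular subunits of their complex, still without passing the test. Coa6, which delivers copper to complex IV, read 2.49 and 2.72 in Epcam tumours without CLC, against 1.58 and 1.27 in Albumin tumours, a difference of 1.17 ± 0.26 (limma adjusted p = 0.117). Coa4, another complex IV factor, read -0.43 and 0.08 against 0.95 and 1.01 in the same order, a difference of -1.16 ± 0.32 (adjusted p = 0.157). Sdhaf4, a complex II assembly factor, differed by 1.17 ± 0.25 (adjusted p = 0.114), and Uqcc3, a complex III factor, by -0.84 ± 0.32 (adjusted p = 0.235). For the 17 complex IV factors as a list the median was 0.04, with 7 of 17 below 0.

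Among regulators of mitochondrial biogenesis, Ppargc1a, the coactivator PGC-1alpha, had the largest difference. It read -0.87 and -0.49 in Epcam tumours with CLC, -1.03 and 0.19 in Epcam tumours without CLC, and -2.30 and -2.94 in Albumin tumours. All 4 Epcam values lay above both Albumin values, by 1.94 ± 0.49 with CLC (limma adjusted p = 0.17) and 2.19 ± 0.49 without CLC (adjusted p = 0.115). Polg, the polymerase that copies mitochondrial DNA, differed by -0.87 ± 0.25 between Epcam tumours without CLC and Albumin tumours (adjusted p = 0.163). The 14 regulators had a median difference of -0.03 there, with 8 of 14 below 0.

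In the tricarboxylic acid cycle the median over 16 genes was -0.12 between Epcam tumours without CLC and Albumin tumours, with 9 of 16 below 0. Mdh2, the mitochondrial malate dehydrogenase, differed by -0.89 ± 0.34 (limma adjusted p = 0.238) and Fh1, fumarate hydratase, by 0.55 ± 0.29 (adjusted p = 0.338). Between Epcam tumours with CLC and Albumin tumours, Idh3a, a subunit of isocitrate dehydrogenase, read 1.24 and 1.24 against 0.29 and 0.09, a difference of 1.05 ± 0.29 (adjusted p = 0.198). Citrate synthase (Cs) read 5.14 and 4.29 in Epcam tumours with CLC, against 3.43 and 4.22 in Epcam tumours without CLC, a difference of 0.89 ± 0.42 (adjusted p = 0.999).

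Of the remaining lists, the 78 mitochondrial ribosome genes had medians of -0.16, -0.02 and -0.20 for Epcam tumours without CLC against Albumin, Epcam tumours with against without CLC, and Epcam tumours with CLC against Albumin. In the first of these, Mrpl18 had the largest difference above 0, at 1.36 ± 0.38, and Mrpl35 the largest below 0, at -1.58 ± 0.71. Slc25a4, an ADP/ATP carrier typical of heart and muscle, differed by 1.39 ± 0.36 there (limma adjusted p = 0.146). It read 3.5 and 3.94 in Epcam tumours with CLC, 4.62 and 3.82 in Epcam tumours without CLC, and 2.82 and 2.84 in Albumin tumours, with no Epcam value as low as either Albumin value. The 10 coenzyme Q genes had a median of -0.28, with 8 of 10 below 0, in the same comparison.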

How the data were processed

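The authors measured RNA of 6 tumours. Per the file headers, intensity per spot comes from Feature Extraction 11.5.1.1 by Agilent. Processed-signal intensity in the deposited files is background-subtracted and not scaled between arrays. In the authors' deposited table, each array's intensity is multiplied by a factor of its own (1.64 to 2.42, what set it is unknown), with column medians of 73.9 and 78.0 (Epcam with CLC), 80.0 and 74.1 (Epcam without CLC), and 61.9 and 55.0 (Albumin).

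Here, control and outlier spots were left out, log2 was taken, each array's 75th percentile subtracted, and spots of a probe averaged. A probe was kept if some group had it above background, by the scanner's own mark, in both tumours. Accessions were named through RefSeq (GRCm38.p6, names and promoters only; the design uses mm9), and the brightest probe stood for a symbol, leaving 27414 features. limma 3.58.1 (R 4.3.3, data.table, version 1.17.8, jsonlite 2.0.0) fitted all 6 arrays with a coefficient per group, 3 residual and 2.61 prior degrees of freedom, and Benjamini-Hochberg adjustment over all features; the code was tested on simulated data. Values after ± are SE. With 2 tumours per group, the number of arrays limits the precision, and the labels do not say whether they came from separate mice, so p-values measure the spread between these samples. Alternatives were other scalings, filters, probe rules, blocks and leaving out each array.

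Named genes are, in each comparison, the 2 of each complex with the largest difference, core subunits, isoform pairs and, per pathway list, the extremes, of which a selection is printed. Genes and lists were chosen with earlier results of these data known. The cytosolic ribosome list was added after seeing the data.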

Additional observations from a re-analysis of the deposited data

How the results depend on the processing

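No respiratory chain gene was called under any alternative in any comparison. For Epcam tumours without CLC against Albumin tumours, the median of the 89 genes moved to 0.0531 under quantile normalization, 0.00051 in the table of the authors and 0.175 with slide as a block; relative to all features it moved to -0.0165 under quantile normalization and 0.15 with slide as a block. For Epcam tumours with CLC against Albumin tumours it moved to 0.0991 under quantile normalization and 0.0861 in the authors' table, and relative to all features to 0.086 under quantile normalization. The authors' table moved the median of all features to 0.37 and 0.31 in these comparisons, and normexp to -0.16 and -0.12, so that relative to all features the genes stayed below 0 in the authors' table. The cause was not tested. Leaving out 1 array gave medians of -0.54 to -0.07 for Epcam tumours without CLC against Albumin tumours, -0.44 to -0.03 for Epcam tumours with CLC against Albumin tumours, and -0.16 to 0.29 for Epcam tumours with against without CLC. Relative to all features these ranges were -0.60 to -0.13, -0.44 to 0.01 and -0.10 to 0.37. A lone array was assumed to vary like the other groups.

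Of 588 values of 30 named differences, 569 kept their direction and 19 turned. Some alternatives cannot move a gene's difference, among them the replicate blocks, refits on only the arrays compared and leaving out an array of a group outside the comparison. Others repeat an estimate, such as the slide block and the fit within a slide for Epcam tumours with against without CLC. The count is therefore not a measure of stability. For Epcam tumours without CLC against Albumin tumours, slide as a block gave -0.0617 for Cox7b2, 0.0403 for Uqcrq, 0.547 for Sdhb and 0.153 for Sdhd. Quantile normalization gave 0.00825 for Sdhb and the table of the authors 0.0288 for Sdhd. Leaving out 1 array gave -0.651 to 0.0829 for Sdhd. For Epcam tumours with against without CLC, leaving out 1 array gave -0.0931 to 0.966 for Atp5d, -0.141 to 0.753 for Uqcrc1, -0.14 to 0.709 for Sdha (the low ends without Epcam without CLC replicate 1) and -0.561 to 0.171 for Sdhc (the high end without Epcam with CLC replicate 2). Uqcrc1 was -0.0255 within slide 2 and also with the slide block. For Epcam tumours with CLC against Albumin tumours, Sdhc was 0.0959 in the table of the authors, 0.142 within slide 1 and also with the slide block, and -0.589 to 0.142 with 1 array left out, and Uqcr10 was 0.0222 under quantile normalization.

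Replicate numbers did not pair the tumours: correlations of same-numbered deviations were -0.16, 0.23 and 0.06. Each group holds both replicate numbers, so a replicate block cannot move the fitted differences. The medians therefore stayed at -0.31, 0.06 and -0.23 for Epcam tumours without CLC against Albumin, with against without CLC, and with CLC against Albumin. With the replicate block, calls among all features in these comparisons were 11, 0 and 0, against 67, 0 and 17 without it. With the Albumin numbers crossed, a choice made after seeing the data, they were 96, 0 and 0. Over the alternatives these calls ranged from 0 to 134 in the first comparison and from 0 to 66 in the last. The planned normexp on a mean signal was run on the median signal, since the files used hold no mean signal column, a choice made after seeing the data.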
